A study of Mus musculus with 6 samples.

Results

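The genes of major histocompatibility complex (MHC) class II presentation were followed in Raw264.7 cells with and without knockdown of *Etv5*, which encodes an ETS family transcription factor. The group held 8 genes, listed by name and chosen with earlier results of these data known. All 8 genes were found among the 24786 gene symbols measured. They were the master regulator *Ciita*, the antigen-binding chains *H2-Aa*, *H2-Ab1* and *H2-Eb1*, the peptide-editing chains *H2-DMa*, *H2-DMb1* and *H2-DMb2*, and the invariant chain *Cd74*. Polyadenylated RNA was sequenced from 3 libraries with a control shRNA (sh-NC) and 3 libraries with an shRNA against *Etv5* (sh-*Etv5*), both delivered by lentivirus. Raw264.7 is a mouse macrophage line from a tumor induced by Abelson leukemia virus, and its labels name the strain C57BL/6 and postnatal day 21. The line itself was established from a BALB/c mouse, and class II genes differ in sequence between these strains. Reads of the polymorphic chains may therefore map less well to the reference, which bears on how low their levels are and was not tested. The control cells therefore also carried a lentiviral vector. The labels give 24 or 48 h after infection with Lipofectamine 3000 present, whereas the study describes the sequenced cells as stable and selected with puromycin. Which of the shRNAs was sequenced, and whether each library had its own culture, is not given in the sources used here, so p-values measure the spread between libraries, which may be technical.

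MHC class II molecules carry peptides from endosomes to the cell surface, where helper T cells read them. An alpha and a beta chain pair in the endoplasmic reticulum and bind the invariant chain (CD74), which blocks the peptide groove and sorts the complex to endosomes. There cathepsins cut the invariant chain down to a short remnant, and H2-DM, itself a pair of DMa and DMb chains, exchanges this remnant for a peptide. In most cells the whole set is silent until interferon gamma induces CIITA, a coactivator that does not bind DNA but docks on RFX, NF-Y and CREB proteins at the X and Y boxes of class II promoters. Macrophages show class II mainly after such induction, whereas dendritic cells and B cells express it without it.

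Values were RPKM, which corrects read numbers for gene length and for the mapped reads of each library, so levels can be compared between genes per length. Depth is unknown from these values, and no counting interval was computed. Differences were tested with limma on log2(RPKM + 1) over the 10738 genes with at least 1 RPKM in at least 3 of the 6 libraries, and a gene counted as called at an adjusted p under 0.05 (Benjamini-Hochberg). Of these genes 74.3% were called, 33.3% higher and 41% lower in sh-*Etv5* cells, so a call alone does not set a gene apart. The knockdown target *Etv5* was at 9.18, 9.89 and 9.39 RPKM in sh-NC and at 5.19, 4.91 and 5.28 RPKM in sh-*Etv5* libraries, which matched the labels. Of the macrophage markers examined, 6 of 7 passed the filter (2 were called higher and 4 lower), and their summed level was 3680 to 3769 RPKM in sh-NC and 2648 to 2731 RPKM in sh-*Etv5* libraries. Most of this sum was *Lyz2*, which fell from 2834 to 2041 RPKM in the mean. The 2 called higher were *Itgam* (33.8 to 127 RPKM in the mean) and *Adgre1* (2.60 to 11.3 RPKM).

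Class II genes were low in both groups, with the exception of the invariant chain. Only *Cd74* and *H2-DMa* passed the filter, and the other 6 members stayed at or below 0.434 RPKM in every library. *Cd74* rose from 107 ± 3.45 to 194 ± 6.64 RPKM (SD, n = 3), while *H2-DMa* fell from 3.10 ± 0.291 to 1.71 ± 0.341 RPKM. Thus 1 of the 2 tested members was called higher and 1 lower. By mean level in sh-NC cells the order was *Cd74*, *H2-DMa*, *H2-Eb1*, *H2-DMb2*, *H2-Aa*, *H2-Ab1*, *H2-DMb1* and *Ciita*. The upper pair stood clear of each other and of the rest in every library, whereas each of the lower 6 overlapped its neighbor in this order.

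**Figure D1:**
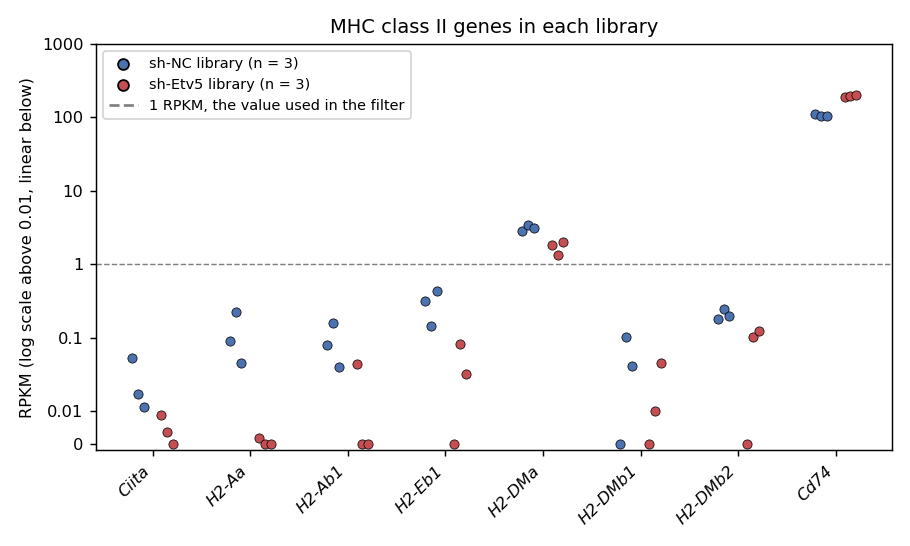
RPKM of the 8 class II members in each library, on an axis that is logarithmic above 0.01 and linear below it (blue, sh-NC; red, sh-*Etv5*; n = 3 libraries each; dashed line, 1 RPKM). *Cd74* lies above 100 RPKM in every library and *H2-DMa* between 1.33 and 3.39 RPKM, whereas the other 6 members lie at or below 0.434 RPKM, several of them at 0.

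*Ciita* encodes the coactivator on which the classical class II program depends. It lies at chr16:10480059-10528418 on the plus strand (GRCm38, GENCODE M21). It was at 0.0523, 0.0173 and 0.0113 RPKM in sh-NC and at 0.00877, 0.00366 and 0 RPKM in sh-*Etv5* libraries. The sh-*Etv5* libraries were all below the sh-NC libraries, but both groups sat close to 0. An exon of *Ciita* overlaps *Dexi* on the opposite strand, and whether counting used strand is not given in the sources used here. At these levels, fewer cells that express the gene and less RNA per cell cannot be told apart in bulk RNA.

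The antigen-binding chains were likewise near 0. *H2-Aa* (chr17:34282744-34287823, minus strand) encodes the alpha chain of I-A. It was at 0.0904, 0.225 and 0.0456 RPKM in sh-NC and at 0.00180, 0 and 0 RPKM in sh-*Etv5* libraries, so the groups did not overlap. *H2-Ab1* (chr17:34257689-34269419, plus strand), its beta chain partner, was at 0.0809, 0.161 and 0.0405 RPKM in sh-NC and at 0.0442, 0 and 0 RPKM in sh-*Etv5* libraries. Here sh-*Etv5* replicate 1 was above sh-NC replicate 3, and the groups overlapped. *H2-Eb1* (chr17:34305867-34316674, plus strand), the beta chain of I-E, was at 0.318, 0.145 and 0.434 RPKM in sh-NC and at 0, 0.0816 and 0.0322 RPKM in sh-*Etv5* libraries. It was the highest of the antigen-binding chains by mean in sh-NC cells, and its groups did not overlap. Summed over the 3 chains, the level was 0.489, 0.532 and 0.520 RPKM in sh-NC and 0.0460, 0.0816 and 0.0322 RPKM in sh-*Etv5* libraries. The mean went from 0.514 ± 0.0220 to 0.0532 ± 0.0255 RPKM (SD, n = 3), a difference of -0.461 RPKM with non-overlapping groups. In the two-sided exact permutation test over libraries p was 0.1, the smallest value that 3 against 3 libraries allow.

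The promoters of 5 members were examined in the RefSeq table (GRCm38.p6), each as 250 bases before to 50 bases after a start. Those of an alpha chain, a beta chain and both DMb genes are printed 5′ to 3′ because they hold core letters of the boxes on which the CIITA program acts, in genes that were at or below 0.434 RPKM. Capitals mark matches to the core of the Y box (ATTGG, the site of NF-Y), of the X1 box (GCAACNG, RFX) and of the X2 box (TGACG, CREB), searched on both strands. *H2-Aa* lies at chr17:34287774-34288073 (minus strand), *H2-Eb1* at chr17:34305617-34305916, *H2-DMb1* at chr17:34152941-34153240 and *H2-DMb2* at chr17:34144999-34145298 (plus strand).
H2-Aa: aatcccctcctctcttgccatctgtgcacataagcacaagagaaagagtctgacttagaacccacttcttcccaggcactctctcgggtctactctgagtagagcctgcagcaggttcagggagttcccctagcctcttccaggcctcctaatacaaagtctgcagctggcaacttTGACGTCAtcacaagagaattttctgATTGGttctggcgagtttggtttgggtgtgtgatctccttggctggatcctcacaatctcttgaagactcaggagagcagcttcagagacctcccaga
H2-Eb1: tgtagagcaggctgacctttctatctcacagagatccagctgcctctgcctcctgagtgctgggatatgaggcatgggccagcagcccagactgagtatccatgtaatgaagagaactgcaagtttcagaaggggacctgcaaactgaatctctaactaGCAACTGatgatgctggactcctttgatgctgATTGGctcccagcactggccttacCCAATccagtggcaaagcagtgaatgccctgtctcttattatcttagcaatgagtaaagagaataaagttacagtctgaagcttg
H2-DMb1: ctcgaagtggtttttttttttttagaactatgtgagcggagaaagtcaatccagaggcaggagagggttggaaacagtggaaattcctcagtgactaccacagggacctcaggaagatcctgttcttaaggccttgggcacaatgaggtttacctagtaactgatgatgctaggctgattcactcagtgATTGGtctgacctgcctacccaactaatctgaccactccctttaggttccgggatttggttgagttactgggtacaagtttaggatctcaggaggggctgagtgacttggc
H2-DMb2: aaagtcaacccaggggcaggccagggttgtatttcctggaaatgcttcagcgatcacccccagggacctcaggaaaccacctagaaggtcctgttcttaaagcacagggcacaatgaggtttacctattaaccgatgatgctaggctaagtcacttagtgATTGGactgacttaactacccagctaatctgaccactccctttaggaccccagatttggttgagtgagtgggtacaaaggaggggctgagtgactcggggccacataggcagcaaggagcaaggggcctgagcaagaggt

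Each of these 4 promoters held a Y box core on the strand of the gene, starting 48 bases before the start in *H2-Aa*, 59 in *H2-Eb1*, 61 in *H2-DMb1* and 90 in *H2-DMb2*. *H2-Eb1* also held an X1 core 91 bases before the start, and *H2-Aa* held X2 cores on both strands that overlap each other, together forming a palindrome. Of all 32851 promoter windows in the table, 37.4% held the Y box core on either strand, 12.7% the X1 core and 20.8% the X2 core. An X1 core followed 10 to 40 bases on by a Y core was present in 0.222% of all windows and in 1 of the 6 windows of members, that of *H2-Eb1*. A Y core on the gene strand that begins 40 to 100 bases before the start, a range chosen after the positions were seen, was present in 7.71% of all windows. *H2-DMa* has 2 RefSeq starts. The window of its first start held none of these cores, and that of its second held a Y core 198 bases before the start. The ETS core CCGGAAGT was in 3.89% of all windows and in 0 of the 6 windows of members. These 6 windows did not include *Cd74*, *H2-Ab1* or *Ciita*, whose promoters were not examined. The shares of member windows therefore leave out the abundant member that rose. Only exact letters were matched, so a box that differs from a core by a base was not found. In *H2-Aa*, the letters gcaactt directly before the X2 cores differ from the X1 core in the last base. A window without a match may therefore still hold that box. These matches describe letters in the reference and not binding.

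**Figure D2:**
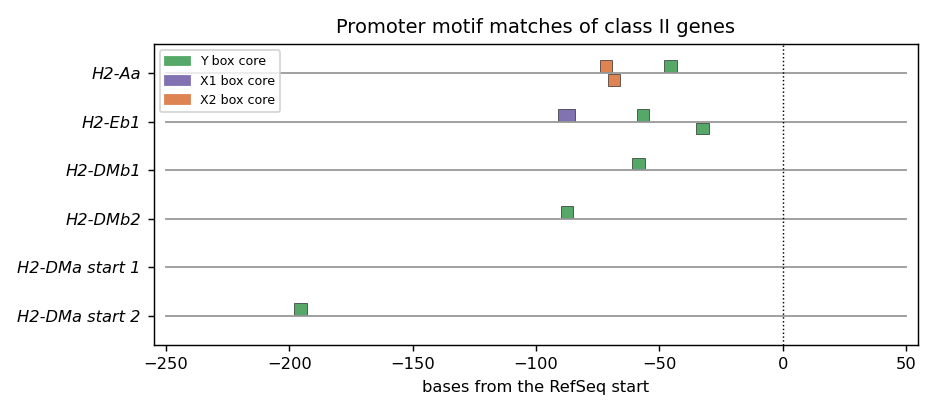
Positions of motif matches in the 6 promoter windows of 5 class II members, in bases from the RefSeq start (boxes above a line, strand of the gene; below it, the other strand). The Y box core lies 48 to 90 bases before the start in *H2-Aa*, *H2-Eb1*, *H2-DMb1* and *H2-DMb2*, and 198 bases before the second start of *H2-DMa*.

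Among the peptide editors, the alpha and beta chains differed in level. *H2-DMa* (chr17:34119541-34139101, plus strand) was at 2.81, 3.39 and 3.11 RPKM in sh-NC and at 1.81, 1.33 and 1.99 RPKM in sh-*Etv5* libraries. Every sh-*Etv5* library was below every sh-NC library, and the mean fell by 44.9%. The log2 fold change of *H2-DMa* was -0.60 (standard error 0.101, 95% confidence interval -0.83 to -0.38, limma adjusted p = 0.000234). An exon of *H2-DMa* overlaps *Brd2* on the opposite strand, and 8.43% of the 50-base sequences in its transcripts also occur in *Brd2* on either strand. *Brd2*, a bromodomain gene, was at 57.3 to 58.3 RPKM in sh-NC and at 57.5 to 61.6 RPKM in sh-*Etv5* libraries, and its groups overlapped. How much of the *H2-DMa* value comes from this shared sequence was not tested.

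Its partners stayed far lower. *H2-DMb1* (chr17:34153072-34160230, plus strand) was at 0, 0.103 and 0.0419 RPKM in sh-NC and at 0, 0.0102 and 0.0455 RPKM in sh-*Etv5* libraries, with overlapping groups. *H2-DMb2* (chr17:34143307-34151555, plus strand) was at 0.182, 0.249 and 0.199 RPKM in sh-NC and at 0, 0.104 and 0.126 RPKM in sh-*Etv5* libraries, without overlap. These beta chain genes are close paralogs, and 22.7% of the 50-base sequences of *H2-DMb1* occur in *H2-DMb2*, so reads can be split between them. Added together they were at 0.182, 0.352 and 0.241 RPKM in sh-NC and at 0, 0.114 and 0.171 RPKM in sh-*Etv5* libraries. The sum did not overlap between groups either, and it stayed at or below 0.352 RPKM, against 1.33 RPKM or more for *H2-DMa* in every library.

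Across the 6 members below the filter, the mean was lower in sh-*Etv5* cells for all 6, and for 4 of them (*Ciita*, *H2-Aa*, *H2-Eb1* and *H2-DMb2*) the groups did not overlap. Of the 14048 genes below the filter, 3.4% were lower without overlap, and of the 7093 among them with any value above 0 it was 6.74%. Both shares include genes at 0 in an sh-NC library, which cannot be lower without overlap. The share among genes of like level was not computed, so how far the members stand out is not known. When limma was fitted to all 24786 genes without the filter, 0 of these 6 members were called, with adjusted p-values from 0.0672 to 0.642, and 2 had an unadjusted p under 0.05 (*H2-Eb1* and *H2-DMb2*). In that fit 30.9% of all genes were called.

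The invariant chain was abundant and went the other way. *Cd74* (chr18:60803848-60812652, plus strand) was at 111, 106 and 105 RPKM in sh-NC and at 187, 195 and 200 RPKM in sh-*Etv5* libraries. All sh-*Etv5* libraries were above all sh-NC libraries, by 80.8% in the mean. The log2 fold change of *Cd74* was 0.85 (standard error 0.0376, 95% confidence interval 0.77 to 0.93, limma adjusted p = 4.78e-09), above the 90th percentile of all tested genes (0.73). By level it ranked between 464 and 501 of 24786 symbols in sh-NC libraries and between 221 and 241 in sh-*Etv5* libraries. Within each library it exceeded the summed antigen-binding chains at least 199-fold. None of the 50-base sequences in *Cd74* transcripts occurs in another gene, and the exon overlap found was with the microRNA gene *Mir5107*. Over the 6 libraries, the genes outside the class II group whose log2(RPKM + 1) followed *Cd74* most closely were *Itm2c*, *Kat8* and *Utp4* (Pearson r = 0.9996, 0.9996 and 0.9992). An r of at least 0.99 with *Cd74* was reached by 788 genes, so the measure separates few of them.

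**Figure D3:**
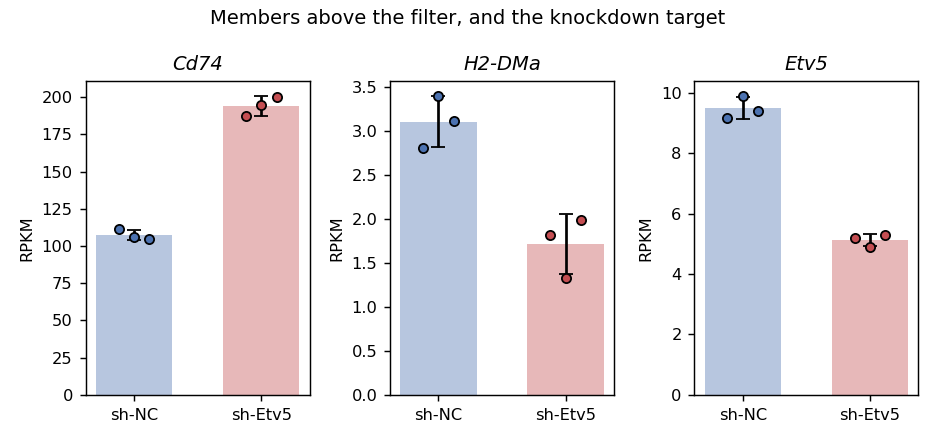
RPKM of *Cd74*, *H2-DMa* and *Etv5* by library (bars, mean; error bars, SD; n = 3 libraries per group; linear axes from 0). *Cd74* is higher in sh-*Etv5* cells (194 against 107 RPKM), *H2-DMa* is lower (1.71 against 3.10 RPKM) and *Etv5* is lower (5.13 against 9.49 RPKM), with no overlap between groups for any of the 3.

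Of the 8 members, 6 lie within the class II region of chromosome 17, interleaved with genes of class I peptide supply. Between *H2-Oa* and *H2-Eb2* (chr17:34092340-34341412) the table held 14 protein-coding genes, a set that was drawn up after the members' values were seen. *Psmb8* and *Psmb9*, subunits of the immunoproteasome, and *Tap1* and *Tap2*, which pump peptides into the endoplasmic reticulum, lay between the DM genes and the antigen-binding chains. In sh-NC libraries *Psmb8* was at 77.8 to 82.9 RPKM and *Tap2* at 17.8 to 19.9 RPKM, whereas the class II genes on either side, *H2-DMb1* and *H2-Ob*, were at or below 0.160 RPKM. In sh-*Etv5* cells *Tap1* (log2 fold change 0.45) and *Tap2* (0.69) were called higher, *Psmb9* (-0.58) was called lower, and *Psmb8* (-0.02) was not called.

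**Figure D4:**
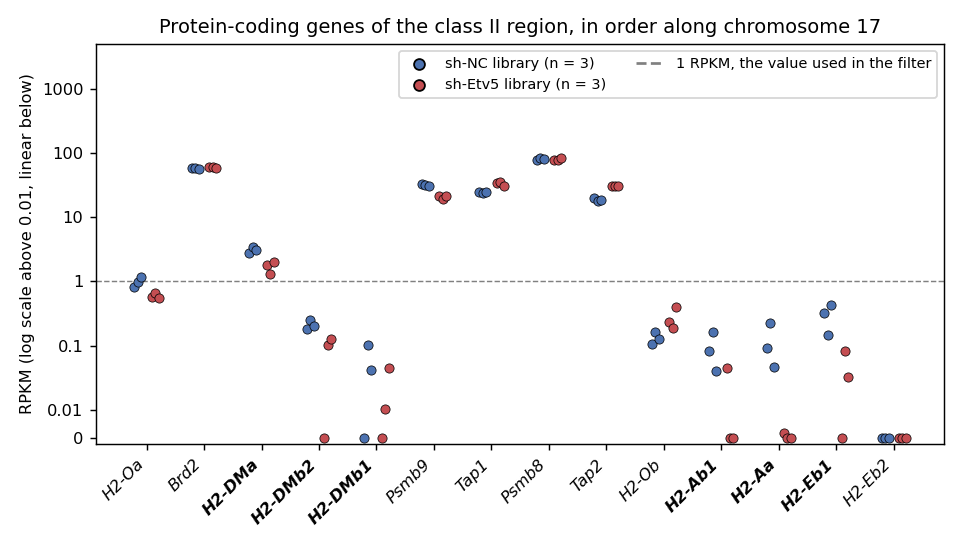
RPKM in each library of the 14 protein-coding genes between *H2-Oa* and *H2-Eb2*, in their order along the chromosome (members in bold; blue, sh-NC; red, sh-*Etv5*; axis logarithmic above 0.01 and linear below). *Brd2*, *Psmb9*, *Tap1*, *Psmb8* and *Tap2* lie above 10 RPKM in every library, while the class II genes around them, except *H2-DMa* and *H2-Oa*, stay below 1 RPKM.

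The other class II genes of this region were also low. *H2-Oa*, which encodes a chain of the H2-DM inhibitor H2-DO, was at 0.813, 0.976 and 1.18 RPKM in sh-NC and at 0.574, 0.659 and 0.556 RPKM in sh-*Etv5* libraries. Its partner *H2-Ob* went the other way, from 0.108, 0.160 and 0.127 RPKM to 0.231, 0.189 and 0.402 RPKM, without overlap. *H2-Ea-ps*, annotated as a pseudogene of the I-E alpha chain in the reference strain, was at 0.0616, 0.0647 and 0.0667 RPKM in sh-NC libraries and listed at 0 in every sh-*Etv5* library. *H2-Eb2* was listed at 0 in all 6 libraries. None of these 4 genes passed the filter. Without the filter, limma called *H2-Oa* (adjusted p = 0.0398) and *H2-Ea-ps* (adjusted p = 2.94e-05) lower and the other 2 not. The *H2-Ea-ps* call rests on a difference of -0.0643 RPKM, with a standard error of 0.00188 on the log2 scale. As its sh-*Etv5* values are all listed at 0 and depth is unknown, its small p-value does not rank it above the other class II genes.

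Of the genes for proteins that occupy class II promoters, 5 of 7 were called lower in sh-*Etv5* cells, 0 higher and 2 were not called. Over all tested genes 41% were called lower. The median log2 fold change of the list was -0.29 against -0.05 over all tested genes. *Nfyb* lost its call in the fit without the filter (limma adjusted p = 0.0726), which left 4 of the 7 genes lower. All 7 passed the filter, in contrast to *Ciita*. *Nfya*, the DNA-reading subunit of NF-Y, fell from 39.0 ± 0.245 to 22.3 ± 0.398 RPKM (SD, n = 3), which is -0.78 on the log2 scale with an adjusted p of 7.81e-09 in limma. *Nfyc*, another NF-Y subunit, fell from 16.3 ± 0.476 to 9.80 ± 0.289 RPKM, and *Creb1* fell from 7.53 ± 0.281 to 5.51 ± 0.238 RPKM. The RFX subunits ranged from 5.87 RPKM for *Rfx5* to 8.53 RPKM for *Rfxank* in sh-NC cells. *Rfx5* was lower by 0.20 on the log2 scale (limma adjusted p = 0.0133, and 0.0554 without sh-NC replicate 3), while *Rfxap* and *Rfxank* were not called.

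The genes that control *Ciita* moved in both directions. Of the 13 listed, 10 passed the filter, of which 4 were called higher, 2 lower and 4 not at all (median 0.04). Over all tested genes 33.3% were called higher and 41% lower. *Jak2*, a kinase of the interferon gamma receptor, was 1 of the 4 and lost its call in limma without sh-NC replicate 1 (adjusted p = 0.0604) or without sh-*Etv5* replicate 2 (adjusted p = 0.05001), which left 3 higher. *Spi1*, another of the 4, lost its call without the filter (limma adjusted p = 0.110) and after rescaling to an equal RPKM sum (0.0775). After rescaling to an equal RPKM sum, 2 were higher and 4 lower. *Irf8*, a myeloid transcription factor, rose from 25.9 ± 0.904 to 47.4 ± 0.927 RPKM (SD, n = 3). *Ifngr1*, which encodes a chain of the interferon gamma receptor, fell from 12.4 ± 0.589 to 9.15 ± 0.639 RPKM. *Ifng* itself was listed at 0 in all 6 libraries. *Prdm1*, which encodes the repressor BLIMP-1 that silences *Ciita* in plasma cells, was below the filter, listed at 0 in every sh-NC library and at 0.334, 0.539 and 0.525 RPKM after knockdown. *Irf4* was also below the filter, at 0.740, 0.988 and 0.859 RPKM in sh-NC and at 0.475, 0.572 and 0.327 RPKM in sh-*Etv5* libraries. Without the filter, where 30.9% of all genes were called, limma called *Prdm1* higher (adjusted p = 0.00302) and *Irf4* lower (0.0359).

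Endosomal proteases cut both antigens and the invariant chain. All 10 listed genes of endosomal processing passed the filter, with 5 called higher, 4 lower and 1 not called (median 0.07), against 33.3% higher and 41% lower over all tested genes. Of the 8 proteases among them, 5 were called higher, 2 lower and 1 was not called, and the other 2 lower calls were an inhibitor and a reductase. *Ctsc* (cathepsin C) rose from 5.73 ± 0.343 to 21.3 ± 1.23 RPKM and *Ctsl* (cathepsin L) from 58.9 ± 1.19 to 155 ± 6.54 RPKM (SD, n = 3). *Ctsh* (cathepsin H) fell from 7.53 ± 0.566 to 1.77 ± 0.343 RPKM, by 1.63 on the log2 scale (adjusted p of 3.72e-08 in limma). Cathepsin S is the main protease for the last cut of the invariant chain in antigen-presenting cells. Its gene *Ctss* was at 165, 169 and 164 RPKM in sh-NC and at 159, 155 and 169 RPKM in sh-*Etv5* libraries, and the groups overlapped. The log2 fold change of *Ctss* was -0.05 (95% confidence interval -0.13 to 0.04, limma adjusted p = 0.279), and it was called lower after rescaling to an equal sum (0.00976) and without sh-*Etv5* replicate 3 (0.0346). *Cst3*, an inhibitor of cathepsins, was lower at 657 ± 49.5 against 1261 ± 11.9 RPKM, and *Ifi30*, the thiol reductase that unfolds antigens, at 131 ± 5.56 against 172 ± 6.55 RPKM.

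Of 8 listed trafficking and turnover genes, 7 passed the filter, with 3 called higher, 1 lower and 3 not called (median 0.07). The shares over all tested genes were 33.3% higher and 41% lower. The tetraspanins *Cd82* (9.85 ± 0.432 to 18.8 ± 0.306 RPKM) and *Cd63* (50.2 ± 1.88 to 76.3 ± 3.53 RPKM) rose, and *Cd9* fell from 241 ± 6.27 to 166 ± 1.70 RPKM (SD, n = 3). *March1*, a ubiquitin ligase that removes class II from the surface, was at or below 0.104 RPKM in every library. CD74 also serves at the cell surface as a receptor for the cytokine MIF together with CD44. Of 5 genes of this receptor system, 3 passed the filter. *Cd44* rose from 23.9 ± 0.790 to 34.8 ± 1.11 RPKM, and *Ddt*, a second ligand, rose from 20.3 ± 1.60 to 24.5 ± 1.11 RPKM. *Mif* was called lower, at 615 ± 28.1 against 679 ± 9.81 RPKM (log2 fold change -0.14, limma adjusted p = 0.00485), but not in the fit without the filter (0.0724). *Cxcr4* was at 0.849, 0.983 and 1.79 RPKM in sh-NC and at 0.174, 0.150 and 0.148 RPKM in sh-*Etv5* libraries, and *Cxcr2* was listed at 0 throughout. Neither passed the filter, and without it limma called *Cxcr4* lower (adjusted p = 0.0166) and *Cxcr2* not.

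**Figure D5:**
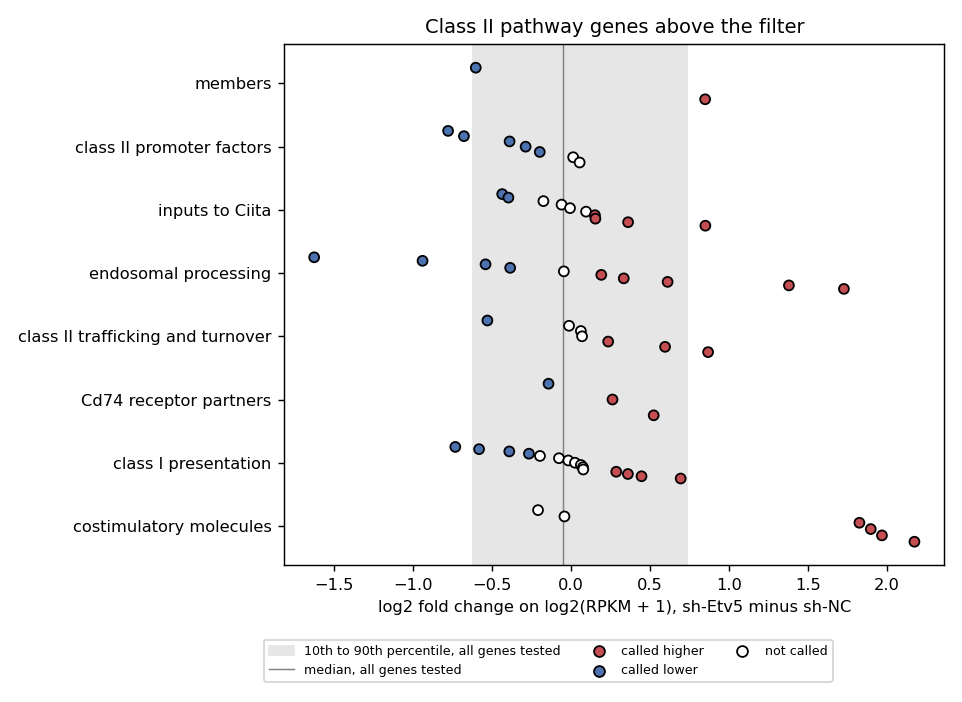
Log2 fold changes on the log2(RPKM + 1) scale of the class II pathway genes that passed the filter, 1 point per gene and 1 row per list (red, called higher in sh-*Etv5* cells; blue, called lower; white, not called; gray band, 10th to 90th percentile of all tested genes, -0.62 to 0.73). The promoter factors reach up to 0.05, *Cd74* and *H2-DMa* lie on opposite sides of 0, and the called costimulatory genes lie between 1.83 and 2.17. Of these costimulatory genes, 3 passed the filter only through their sh-*Etv5* libraries.

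Class I presentation was expressed throughout and showed no common direction. All 15 listed genes passed the filter, with 4 called higher, 4 lower and 7 not called (median 0.02), and without sh-*Etv5* replicate 2 6 were called higher, 5 lower and 4 not. Over all tested genes 33.3% were called higher and 41% lower. *Tap2* (log2 fold change 0.69), *Erap1* (-0.73), which trims peptides, and *Psmb9* (-0.58) changed most. *Nlrc5*, the class I counterpart of *Ciita*, was at 6.32 RPKM on average in sh-NC and at 7.94 RPKM in sh-*Etv5* cells. Of 6 costimulatory and checkpoint genes, whose products T cells read beside class II, 4 were called higher and 2 were not called, and 3 of the 4 passed the filter only through their sh-*Etv5* libraries. With a mean of at least 5 RPKM required, 2 of the 6 were tested, of which 1 was called higher. The 2 genes not called, *Icam1* and *Icosl*, were called lower after rescaling to an equal sum. In limma *Icosl* was also called lower with quantile normalization (adjusted p = 0.0126), without sh-NC replicate 2 (0.0287) and without sh-*Etv5* replicate 2 (0.0387). *Cd86* was at 0.459, 0.515 and 0.362 RPKM in sh-NC and at 5.81, 5.11 and 5.66 RPKM in sh-*Etv5* libraries. *Cd40* rose from 1.99 ± 0.155 to 10.7 ± 0.760 RPKM and *Cd274*, which encodes PD-L1, was at 0.708 ± 0.197 and 5.34 ± 0.315 RPKM (SD, n = 3). No test compared these lists with the class II members.

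Markers of cells that express class II without induction were read beside the low members. The 5 B cell markers summed to 0.0367 to 0.199 RPKM in sh-NC and 0.256 to 0.733 RPKM in sh-*Etv5* libraries. None passed the filter, *Pax5* was listed at 0 throughout, and *Cd79b* was the highest at 0.367 RPKM. The 7 dendritic cell markers, of which none passed the filter either, summed to 0.768 to 1.05 RPKM in sh-NC and 0.363 to 0.531 RPKM in sh-*Etv5* libraries, with *Zbtb46* the highest. The lower sum was that of *Zbtb46* (0.756 against 0.148 RPKM in the mean), since the other 6 markers summed to 0.0770 to 0.140 RPKM in sh-NC and 0.231 to 0.342 RPKM in sh-*Etv5* libraries. *Xcr1* and *Ccr7* were higher in every sh-*Etv5* library than in any sh-NC library, at no more than 0.156 RPKM. *Flt3*, *Clec9a* and *Siglech* had lower means in sh-*Etv5* cells and *Batf3* a higher one, each with overlapping groups. The share of all genes below the filter that were higher without overlap was not computed. The part of such cells in the low class II values was not tested. Of the 5 T cell markers, *Lck* passed the filter and was called higher (1.36 against 3.98 RPKM), and the list summed to 1.08 to 1.58 RPKM in sh-NC and 3.98 to 4.13 RPKM in sh-*Etv5* libraries. The fibroblast list (0.0112 to 0.0238 RPKM in sh-NC, 0.112 to 0.164 RPKM in sh-*Etv5*) and the epithelial list (at most 0.0234 RPKM) stayed near 0.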

How the data were processed

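Polyadenylated RNA of 3 sh-NC and 3 sh-*Etv5* libraries was analyzed, with groups and replicate numbers taken from the sample labels. The authors deposited RPKM per gene symbol, not log transformed and, per the file headers, taken from bedGraph coverage tracks, and the submitters' processing notes name mm10. The aligner, annotation and strand setting are not given in the sources used here. Libraries summed to 320462 to 340257 RPKM. Among the 500 lowest values of a library, multiplied by transcript length, 323 to 329 distinct sizes occurred, so whole reads were not recovered and depth is unknown, which limits what values near 0 can show. None of 18 housekeeping genes was at 0.

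Genes with at least 1 RPKM in at least 3 libraries were tested with limma 3.58.1 in R 4.3.3 on log2(RPKM + 1), with eBayes and an intensity trend, in both directions and without covariates. This scale understates changes of low genes. The threshold was a Benjamini-Hochberg adjusted p of 0.05. The fit was tested on simulated data for 10738 genes, where 194 of 200 genes changed by 1 on the log2 scale were recovered and 10 unchanged genes were called. In the data 74.3% of tested genes were called, and *Cd74* and *H2-DMa* changed by less than 1 (0.85 and -0.60). The rates of this simulation therefore do not carry over to these calls. Annotation came from GENCODE M21 (GRCm38) and promoters from RefSeq (GRCm38.p6), read with Python 3.11.15 and pandas 2.3.3. Of 104 listed genes, 101 were found by symbol.

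The members and lists were chosen with earlier results of these data known. Named were all members, *Etv5*, the up to 3 tested genes of each list with the largest change, genes whose role the text needed, and the 3 genes most like the member of highest level. *Jak2*, *Spi1*, *Icam1*, *Icosl* and the genes of the class II region outside the lists were named after their values were seen. An item that this rule would name is not reported here. Same-numbered libraries were not paired, as their deviations from the group means correlated by only 0.07, -0.07 and -0.04. The alternatives were other pseudocounts, filters and scalings, no trend, a fold threshold, the replicate block and each library left out.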

Additional observations from a re-analysis of the deposited data

How the results depend on the processing

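*Cd74* stayed higher and *H2-DMa* lower in sh-*Etv5* cells under every alternative in which they were tested. The log2 fold change of *Cd74* lay between 0.79 and 0.87 over 16 alternatives (adjusted p from 4.51e-10 to 0.000155), and that of *H2-DMa* between -0.87 and -0.50 over 15 (adjusted p from 7.68e-05 to 0.0193). With the replicate number as a block (replicate block), the limma adjusted p was 5.73e-07 for *Cd74* and 0.00112 for *H2-DMa*, 3539 genes were higher and 4361 lower, and no call of a member changed. Requiring an absolute log2 fold change above 1 left 0 members called higher and 0 lower, since both lie below that size, with 669 genes higher and 322 lower overall. A filter on a mean of at least 5 RPKM removed *H2-DMa* and left 0 members called lower. Rescaling to the same sum moved the median of all tested genes to -0.10 (from -0.05). It changed the summed antigen-binding chains by less than their spread, and leaving out 1 library at a time kept the difference in that sum between -0.475 and -0.450 RPKM. Beside the fold threshold, 881 of the recomputed log2 fold changes of 61 named or listed genes kept their side of the threshold, 9 lost the call, 17 gained it and 0 reversed. *H2-DMb1* and *H2-DMb2* added together remained below the filter (without it, limma adjusted p = 0.162). The planned ratios of *H2-Aa* to *H2-Ab1*, of *Cd74* to *H2-Ab1* and of *H2-DMa* to both DMb genes were not computed, as each has a library at 0 in its denominator. With 3 libraries per group and unknown depth, differences below 1 RPKM are limited by counting noise of unknown size.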
